A study of Mus musculus with 18 samples.

Results

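In Kap1 KO mouse embryonic fibroblasts (MEFs), 6837 distal sites carried an H3K27ac peak where the WT list had none. They were 30.7% of the 22293 distal Kap1 KO peaks on the 18 autosomes used, and are called gained distal peaks here. They were chosen by the H3K27ac lists themselves. A gained distal peak shares no base with any WT peak and lies over 1 kb from every annotated transcript start, on any autosome but chr18. The full Kap1 KO list held 36436 peaks and the WT list 36275. The H3K27ac values given below, among them score, width and the distance to WT peaks, come from the lists that selected the peaks and are a description only.

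Acetylation of histone H3 on lysine 27 (H3K27ac) marks active promoters and enhancers. KAP1, the product of Trim28 (Kap1), is a corepressor that KRAB-containing zinc finger proteins (KZFPs) bring to DNA, largely to transposable elements. It recruits the methyltransferase SETDB1, which places H3K9me3, a mark of silent chromatin.

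The WT MEFs were Kap1 loxP/loxP cells and the KO MEFs lacked Kap1, both embryonic and of strain C57BL/6 in the labels and C57BL/6J in the methods, and the H3K27ac and H3K9me3 lists of each genotype came from 1 library per mark. KAP1 and SETDB1 peaks came from 1 library each of Hepa 1.6, a mouse hepatoma line and thus another cell type than MEFs. The study's methods describe, for RNA-seq, a single KO clone kept in culture for many passages beside its non-excised counterpart, and do not say whether ChIP used it. The loss of Kap1, the history of a clone and the variation between libraries therefore cannot be told apart, and no p-value between genotypes was computed.

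H3K27ac lay within 1 kb of a start of all 7 fibroblast markers examined in both genotypes, among them Col1a1, Vim, Twist1 and Prrx1. No peak was found at Alb and Apoa1 of hepatocytes, at Pou5f1, Nanog and Zfp42 of embryonic stem cells, or at the 2 blood and 2 epithelial markers examined. Of the endothelial markers, Pecam1 had a peak of score 174 (WT) and 161 (Kap1 KO), and Cdh5 had none. Trim28 itself had a peak with a score of 3100 in both, so the acetylation of its promoter does not check the deletion.

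3 gained distal peaks show the kinds of site described below, and the 300 bases at the middle of each are printed from the plus strand of the mm9 genome. The peak near Ptger4, which encodes a prostaglandin E2 receptor, had the highest H3K27ac score. In its right part a KAP1 peak begins at 5226947 and a WT H3K9me3 peak at 5227024, just past the printed bases. The peak in an intron of Arhgap10 had the highest-scoring WT H3K9me3 peak nearby, which begins at 79969463, past the printed bases. Capitals mark the bases that lie inside another, lower WT H3K9me3 peak, of score 134. The peak near Kpna2, which encodes an importin, was next to a KAP1 peak at the ceiling of the score, and capitals mark the bases inside a second, lower KAP1 peak.
Ptger4, chr15:5226642-5226941, + strand: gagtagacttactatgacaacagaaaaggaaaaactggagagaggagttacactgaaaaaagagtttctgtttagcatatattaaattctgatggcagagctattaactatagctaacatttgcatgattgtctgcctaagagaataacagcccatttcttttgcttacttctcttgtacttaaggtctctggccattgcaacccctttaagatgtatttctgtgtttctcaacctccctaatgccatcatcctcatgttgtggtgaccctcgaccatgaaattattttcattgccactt
Arhgap10, chr8:79966867-79967166, + strand: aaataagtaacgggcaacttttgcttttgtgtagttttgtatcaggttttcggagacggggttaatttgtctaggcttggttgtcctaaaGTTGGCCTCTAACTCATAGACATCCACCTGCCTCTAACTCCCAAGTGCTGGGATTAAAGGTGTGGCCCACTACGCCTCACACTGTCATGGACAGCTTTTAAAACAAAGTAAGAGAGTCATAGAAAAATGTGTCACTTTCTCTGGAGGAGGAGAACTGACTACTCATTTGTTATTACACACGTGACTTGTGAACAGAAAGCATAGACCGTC
Kpna2, chr11:106875783-106876082, + strand: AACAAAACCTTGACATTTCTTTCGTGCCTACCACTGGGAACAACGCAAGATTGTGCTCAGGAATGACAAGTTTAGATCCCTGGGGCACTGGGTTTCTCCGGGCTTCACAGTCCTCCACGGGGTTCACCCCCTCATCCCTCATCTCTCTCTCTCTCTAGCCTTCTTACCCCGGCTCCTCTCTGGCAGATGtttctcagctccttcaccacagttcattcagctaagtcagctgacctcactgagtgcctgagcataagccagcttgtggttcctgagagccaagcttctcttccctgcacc

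Gained distal peaks were mostly weak and narrow, with a small group of very strong ones. Their median score, the value that the authors' peak caller gave each peak, was 127, with 1 in 4 under 76.2 and 1 in 20 over 950. The 15456 distal Kap1 KO peaks shared with WT had a median of 443, and the 6958 distal peaks found in WT only had a median of 117. The gained peaks were thus slightly above the WT only peaks in score, and both were far below the shared ones. A score of 3100, at which many peaks of the lists pile up, was reached or passed by 57 gained peaks, or 0.834%, by 14 WT only peaks, or 0.201%, and by 1705 shared peaks, or 11%. The median width was 1242 bp for gained, 1833 bp for shared and 1176 bp for WT only peaks.

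**Figure D1:**
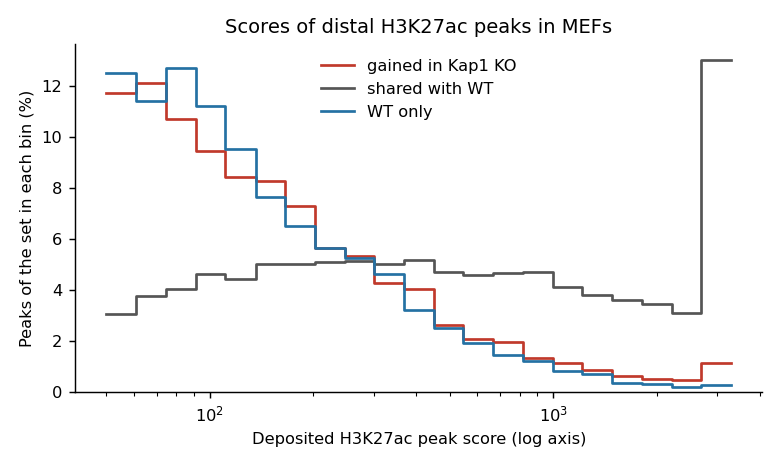
Distribution of the deposited H3K27ac score (horizontal log axis) as the percent of each set of distal MEF peaks per bin (vertical axis). Gained peaks (red, n = 6837) and WT only peaks (blue, n = 6958) pile up at low scores with medians of 127 and 117, and shared peaks (grey, n = 15456) hold 11% at 3100 or more, inside the last bin, which begins at a lower score.

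The lists were compared by shared bases, so that some gained peaks adjoin a WT peak and others stand alone. The gap to the nearest WT H3K27ac peak was under 1 kb for 455 gained peaks (6.65%), from 1 kb to under 10 kb for 2293 (33.5%), from 10 kb to under 100 kb for 2871 (42%) and 100 kb or more for 1218 (17.8%). At the edge of the rule, gained peaks near Gpc1 (score 66.2) and Nrsn1 (score 239) lay 5 and 10 bp from a WT peak. On the other side, distal peaks near Slit2 (score 83.8) and Runx1t1 (score 50.9) shared only 3 and 4 bp with one and were counted as shared. Likewise, gained peaks 1001 bp from a start of Nek8 (score 53.5) and 1009 bp from a U2 RNA gene (score 74.7) were kept, and Kap1 KO only peaks 999 bp from Igkv4-62 (score 1218) and 998 bp from Myh13 (score 88.2) were not. In all, 580 Kap1 KO only peaks lay within 1 kb of a start and are not described here.

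The middle of a gained peak lay between genes in 61.6% (95% confidence interval 60.5% to 62.8%), in an intron in 36.8% and in an exon in 1.59%. Of shared distal peaks 52.1% lay between genes, and of WT only peaks 45.9%. The gained peaks exceeded the shared by 9.55 points (8.15 to 10.9) and the WT only by 15.7 points (14.1 to 17.3). These intervals, exact Clopper-Pearson for shares and Newcombe for differences, cover counting error within 1 library and treat peaks as independent, which neighbouring peaks are not. The median distance to the nearest protein-coding start was 36278 bp (34820 to 37714) for gained, 29274 bp for shared and 32142 bp for WT only peaks. A distance over 100 kb was found for 24.5% of gained, 18.9% of shared and 22.7% of WT only peaks.

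The 57 gained peaks with a score of 3100 or more were wide, from 2569 to 36383 bp with a median of 5189 bp. Of these, 40 lay between genes, 12 lay over a KAP1 peak of Hepa 1.6 cells, 12 over a WT H3K9me3 peak, of which 3 lay over both, 6 held an AP-1 match, and 11 had a WT H3K27ac peak within 10 kb. Among them 55 were tied at 3100, so the 8 named below after the first pair were taken in order of chromosome and position and do not rank above the rest. The highest, at chr15:5225443-5228140 and 32604 bp from the start of Ptger4, had a score of 3120 and shared 443 bp with a WT H3K9me3 peak of score 77.3 and 655 bp with a KAP1 peak of score 139. The next, at chr16:42660709-42664830 with a score of 3108, lay 244989 bp from a start of Zbtb20, a zinc finger transcription factor, and over a KAP1 peak of score 203. The peak at chr11:6835670-6839893, with a score of 3100 and 125711 bp from Adcy1, an adenylyl cyclase, lay over both marks. At the same score, a peak 46987 bp from Vps54, of a vesicle tethering complex, and a 6982 bp peak 18694 bp from Fam36a lay over KAP1 only. The others named, near Rgs1, Enah, Lrig3, Dcdc2c and Sypl, had neither mark within 3 kb and scored 3100 each.

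Some gained peaks formed runs, defined as 2 or more with at most 10 kb between neighbours. There were 752 runs with 1720 gained peaks, or 25.2% (24.1% to 26.2%), and 5117 gained peaks stood outside runs. WT only peaks, of which there were nearly as many, were in runs for 23.0%, a difference of 2.12 points (0.692 to 3.55). Of the more numerous shared distal peaks, 42.6% were in runs. The runs had a median length of 7184 bp, and 673 of the 752 held no other H3K27ac peak of either genotype. WT H3K9me3 peaks lay inside 121 of the runs.

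Runs of 5 or more gained peaks numbered 12. The run with the most members held 10 peaks at chr11:38483803-38522044, with scores from 57.4 to 2408. It lay at least 1434878 bp from the nearest protein-coding start, that of Odz2, which encodes a teneurin. Runs of 6 were found near Pabpc1 (scores 62.9 to 922) and Gm9931 (123 to 475). Runs of 5 lay near Rwdd4a (86.2 to 3100), Mapk10, a JNK family kinase (223 to 3100), Lphn3, an adhesion receptor (146 to 3100), Adcy1 and Igfbp1 (170 to 1092), Agpat4 (68.5 to 1342), Trim24 (65.8 to 569), Pcdh17 (77.4 to 724), Aff1 (51.5 to 633) and Tgfbr2 (50.9 to 458). Of these 12 runs, the one near Aff1 held 2 WT H3K27ac peaks and 2 other Kap1 KO peaks, the one near Tgfbr2 held 1 of each, and the other 10 held none. The run near Rwdd4a held 2 WT H3K9me3 peaks and the run near Trim24 held 4 KAP1 peaks, and the other 10 held none of either.

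Near some genes every distal peak, or nearly every one, was gained. At Grm8, a metabotropic glutamate receptor gene on chr6, 19 gained peaks were nearest, and no shared and no WT only distal peak was. Their scores ran from 50.8 to 3100 with a median of 234, the highest at chr6:27494186-27498831, in an intron. At Pcdh17, a protocadherin gene on chr14, 24 gained peaks were nearest against 4 shared and 2 WT only, with a median score of 240. Those with a score of 3100 were 6759, 9193, 10923 and 23966 bp wide. Near Odz2, 19 gained peaks stood with no shared or WT only peak, and the same held for Pabpc4l with 13, Myo3b with 10 and Pcdh10, another protocadherin, with 10. The widest gained peak, 36383 bp with a score of 3100, lay 31664 bp from Pcdh10 at chr3:45195801-45232183. In all, 5 gained peaks were 10 kb wide or more, as were 52 shared and 0 WT only peaks. WT H3K9me3 lay within 3 kb of 1 gained peak near Myo3b and of none near Grm8, Pcdh17, Odz2, Pabpc4l or Pcdh10.

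Elsewhere gained peaks stood among shared ones. Near Myc, the oncogenic transcription factor, 14 gained peaks stood beside 49 shared and 5 WT only ones, with a median score of 71.2 and none over 330. Gadd45g, a stress response gene, had 12 gained, 15 shared and 7 WT only peaks, Cntnap2 had 12, 2 and 0, Zbtb20 had 11, 10 and 2, Ddi1 had 11, 5 and 0, and Gm6984 had 11, 7 and 2. Over all genes, 3923 of 20760 protein-coding genes, or 18.9%, were nearest to 1 or more gained peaks, and 3929, also 18.9%, to WT only peaks, with 1299 genes in both. The nearest gene can be far away, and the peaks counted for Pcdh17, Grm8 and Odz2 lay up to 1456996, 947473 and 1545076 bp from their starts.

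Most of the gene lists held similar numbers of genes near gained and near WT only peaks. Of 18 annotated fibroblast and matrix genes, 8 were nearest to a gained and 9 to a WT only peak. For AP-1 and early response genes these numbers were 8 and 8 of 17, for TGF-beta, BMP and Wnt genes 9 and 12 of 19, for developmental transcription factors 13 and 15 of 26, for growth factors and cytokines 10 and 7 of 21, and for contractile and adhesion genes 8 and 8 of 14. The interferon response genes had 2 and 4 of 20, germline genes 1 and 2 of 11, and the KAP1 machinery 4 and 4 of 11. The lists were chosen with earlier results of these data known, and the counts are to be read against the 18.9% of all genes.

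Single genes of these lists had several gained peaks, and those named are up to 3 per list, chosen for the most gained peaks. The list totals often went the other way. Fibroblast and matrix genes had 11 gained and 19 WT only peaks, AP-1 and early response genes 25 and 36. TGF-beta, BMP and Wnt genes had 21 and 32, developmental transcription factors 21 and 48, interferon response genes 2 and 7, germline genes 1 and 3. Growth factors and cytokines had 24 and 14, contractile and adhesion genes 21 and 14. The cytokine gene Il6 had 4, with scores of 84.1, 91.7, 331 and 567, and no shared or WT only peak. The one of score 331, at chr5:30246511-30248184, lay over both a WT H3K9me3 and a KAP1 peak. Igfbp3, an IGF binding protein, had 7 gained, 5 shared and 0 WT only peaks, Igfbp7 had 3, 6 and 2, and the TGF-beta receptor gene Tgfbr2 had 7, 12 and 1. Inhba, which encodes an activin subunit, had 4, 17 and 3, and Tgfb3 had 2, 6 and 3. The adhesion gene Ncam1 had 7, 8 and 2, the tropomyosin gene Tpm1 3, 12 and 2, and Ankrd1 3, 4 and 2. Among matrix and fibroblast genes, Sparc had 3, 6 and 1, Twist2 2, 4 and 1, and Fbn1 1, 3 and 0. Atf3 had 3, 5 and 0, Fos 2, 4 and 1, Tbx18 3, 1 and 0, Zeb2 3, 12 and 5, and Runx1 3, 13 and 2. Cxcl10 and Rsad2, both induced by interferon, and the germ cell gene Stra8 had 1 gained peak each and no other, with scores of 92.3, 88.1 and 65.8.

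Genes of the KAP1 pathway itself were among those with gained peaks nearby. Of the 11 annotated genes of that list, 4 were nearest to gained and 4 to WT only peaks. The list had 8 gained and 5 WT only peaks in all, and the 3 genes named here were chosen for the most gained peaks. Setdb1 had 4 gained peaks between 20358 and 37210 bp from its start and no shared or WT only distal peak. Their scores were 794, 177, 81.2 and 75.3, and 3 of the 4 had WT H3K9me3 within 3 kb. The strongest, at chr3:95180617-95182348, lay over both a WT H3K9me3 and a KAP1 peak. Morc3 had 1 gained peak of score 2127, at 45285 bp from its start, and no shared or WT only peak. Atf7ip, whose product binds SETDB1, had 2 gained peaks, of scores 82.5 and 422, beside 3 shared and 0 WT only ones.

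Of 347 Zfp genes, named by symbol and many of them KZFPs, 61 (17.6%) were nearest to a gained and 35 (10.1%) to a WT only peak. Zfp366, Zfp746 and Zfp804b had 5 gained peaks each, beside 4, 1 and 0 shared and 1, 0 and 0 WT only ones. Of 1106 olfactory receptor genes, 43 (3.89%) were nearest to a gained and 11 (0.995%) to a WT only peak. Olfr161 had 7 gained, 0 shared and 3 WT only peaks. Its gained peaks lay 116611 to 521613 bp from its start, with scores up to 1586, and 4 had WT H3K9me3 within 3 kb. Olfr718-ps1 and Olfr24 had 3 gained peaks each and no shared or WT only peak. Both lists were under the 18.9% of all genes.

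WT H3K9me3, a mark the rule did not use, was more frequent at gained peaks than at other distal peaks. WT H3K9me3 lay within 3 kb of 725 gained peaks, or 10.6% (9.88% to 11.4%). Shared distal peaks had it in 4.33% (4.01% to 4.66%) and WT only peaks in 2.69% (2.32% to 3.10%), and over all distal Kap1 KO peaks the share was 6.25%. The gained peaks exceeded the shared by 6.28 points (5.49 to 7.09) and the WT only by 7.92 points (7.10 to 8.75). Direct overlap was rarer and separated the sets further, with 370 gained peaks (5.41%), 133 shared (0.861%) and 12 WT only peaks (0.172%). The share was higher in gained than in shared peaks, and also than in WT only peaks, on all 18 chromosomes, between 3.33% on chr7 and 20.3% on chr8. On these 2 chromosomes the WT H3K9me3 list held 219 and 2043 peaks, and the shares of shared peaks were 1.21% and 10.4%. Both comparison sets have a listed WT H3K27ac peak, whereas gained peaks by rule have none, and the lack of a WT peak and the gain in Kap1 KO cells cannot be told apart here.

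WT H3K9me3 was highest at the very middle of the gained peaks. At the middle base, 2.49% of gained peaks lay inside a WT H3K9me3 peak, and at 42 places between 10 and 20 kb to either side the share ran from 0.541% to 1.14%. In shared peaks the middle was at 0.136% and the surroundings at 0.492% to 0.796%, and in WT only peaks at 0.0862% and 0.244% to 0.632%. Around peaks that WT cells acetylate there was thus a dip where gained peaks had a summit. KAP1 of Hepa 1.6 cells had a summit in all sets, of 4.07% in gained, 3.80% in shared and 1.21% in WT only peaks.

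**Figure D2:**
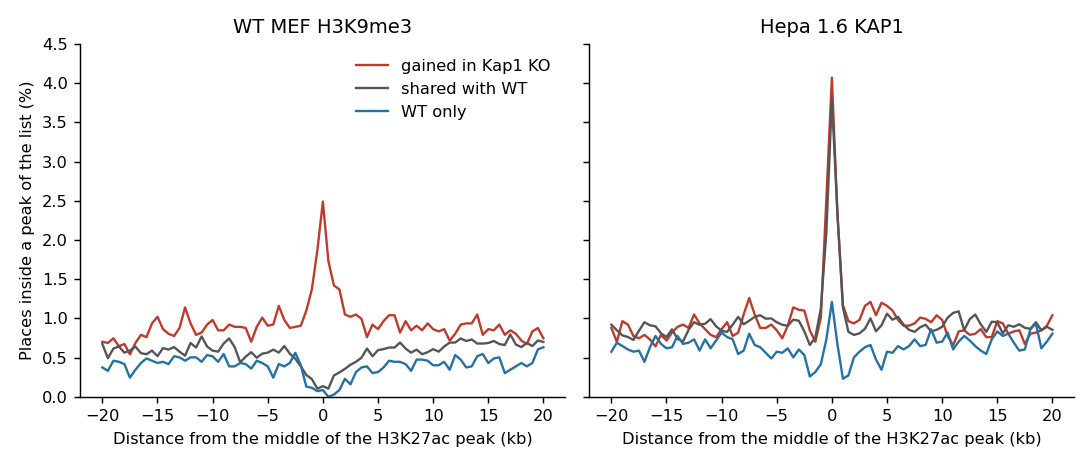
Percent of places that lie inside a WT MEF H3K9me3 peak (left) or a Hepa 1.6 KAP1 peak (right), by distance in kb from the middle of gained (red), shared (grey) and WT only (blue) distal H3K27ac peaks. WT H3K9me3 reaches 2.49% at the middle of gained peaks and falls to 0.136% at the middle of shared ones, and KAP1 reaches 4.07% and 3.80%.

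The association with WT H3K9me3 was found at every score and was strongest among the strongest gained peaks. Quartiles of score were set over all distal Kap1 KO peaks. In the lowest, with scores up to 114, WT H3K9me3 lay within 3 kb of 8.86% of 3091 gained and 3.42% of 2482 shared peaks. In the next, up to 277, the shares were 9.90% and 3.76%, and in the third, up to 893, 12.1% and 3.79%. In the highest quartile, 24.1% of 378 gained peaks (19.8% to 28.7%) and 5.58% of 5196 shared peaks (4.97% to 6.24%) had it. Grouped by width, the gained shares ran from 8.71% in the narrowest to 19.9% in the widest quartile, and the shared from 3.22% to 5.61%.

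**Figure D3:**
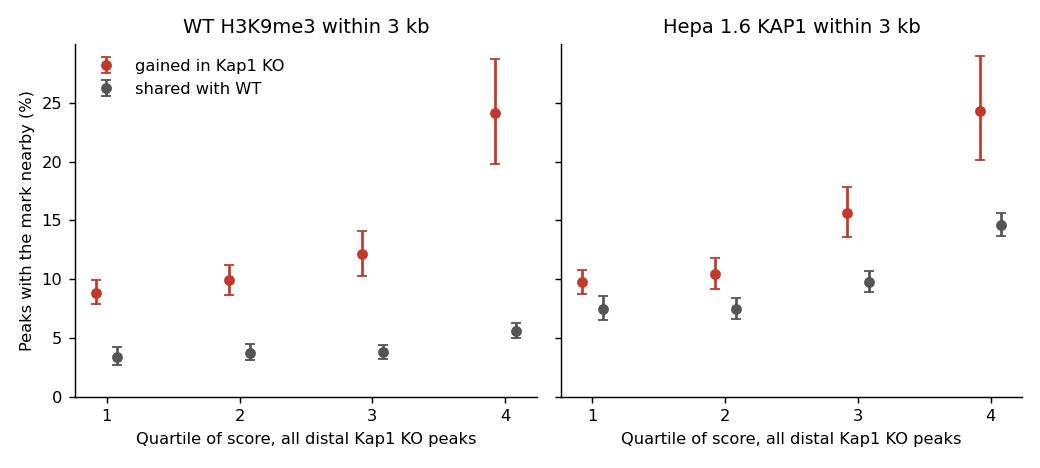
Percent of gained (red) and shared (grey) distal Kap1 KO peaks with WT H3K9me3 (left) or Hepa 1.6 KAP1 (right) within 3 kb, by quartile of H3K27ac score, with exact 95% intervals as bars. WT H3K9me3 rises from 8.86% to 24.1% in gained peaks and from 3.42% to 5.58% in shared ones.

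Where a gained peak had WT H3K9me3 nearby, the Kap1 KO list seldom had any. Of the 725, 9 had a Kap1 KO H3K9me3 peak within 3 kb, or 1.24%, and 716 had none. This was so of the mark at large, since the Kap1 KO list held 4161 H3K9me3 peaks on these chromosomes and the WT list 14192, of which 712, or 5.02%, had a Kap1 KO peak within 3 kb. Over all gained peaks, Kap1 KO H3K9me3 lay within 3 kb of 22, or 0.322%, against 0.247% of all distal Kap1 KO peaks. Of shared peaks 0.214% had it and of WT only peaks 0.589%. Gained minus WT only was -0.267 points (-0.503 to -0.0414). Conversely, 920 of the 14192 WT H3K9me3 peaks (6.48%) had a gained peak within 3 kb, and 219 (1.54%) had a WT only distal one.

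The 5 gained peaks with the highest-scoring WT H3K9me3 nearby were led by the one in Arhgap10 at chr8:79964003-79970029, with an H3K27ac score of 2877. It lay over 4 WT H3K9me3 peaks, the largest 6524 bp wide with a score of 2516, and 2214 bp from a KAP1 peak of score 3100 that was also on the SETDB1 list. The others lay near Ptprs, a receptor phosphatase (H3K27ac score 1016, H3K9me3 score 1823), Cd300ld (68.3 and 1291), Sept9, a septin (455 and 1177), and Prl2c3, of the prolactin family (134 and 1135). The last 2 lay wholly inside the H3K9me3 peak. The 5 had KAP1 within 3 kb.

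KAP1 of Hepa 1.6 cells was slightly more frequent near gained than near shared peaks, and clearly less so near WT only peaks. It lay within 3 kb of 806 gained peaks, or 11.8% (11% to 12.6%), of 10.5% of shared (10.1% to 11%) and of 4.73% of WT only peaks (4.24% to 5.25%), and of 10.9% of all distal Kap1 KO peaks. Gained exceeded shared peaks by 1.24 points (0.350 to 2.16) and WT only peaks by 7.06 points (6.15 to 7.98). With direct overlap the first difference was 0.0190 points (-0.666 to 0.733). The share was higher in gained than in shared peaks on 15 of 18 chromosomes, and within each quartile of score, from 9.74% against 7.49% in the lowest to 24.3% against 14.6% in the highest. The SETDB1 list, with 2957 peaks, is wholly contained in that of KAP1 and so marks a part of the KAP1 peaks. KAP1 peaks of this kind lay within 3 kb of 143 gained peaks, or 2.09% (1.77% to 2.46%), against 1.53% of shared and 0.690% of WT only peaks and 1.70% of all distal Kap1 KO peaks.

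A KAP1 peak with a score of 3100 lay within 3 kb of 11 gained peaks. The 5 of these with the highest H3K27ac scores were the one in Arhgap10 and those near Kpna2 (H3K27ac score 546), Klrb1c, a natural killer cell receptor (338), Zfp184 (260) and Elf2, an ETS factor (179). None of these 4 had WT H3K9me3 within 3 kb, and they lay 115 to 3117 bp from a WT H3K27ac peak.

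WT H3K9me3 and KAP1 met at 246 gained peaks, or 3.6% (3.17% to 4.07%), against 1.29% of shared, 0.503% of WT only and 2.00% of all distal Kap1 KO peaks. KAP1 lay within 3 kb of 33.9% of gained peaks with WT H3K9me3 and of 9.16% of the 6112 without it. Of the 669 shared peaks with WT H3K9me3, 199 had KAP1 as well. Counted over the WT H3K9me3 peaks themselves, 25.7% of all 14192 had KAP1 within 3 kb. The marks thus also met away from gained peaks. After Ptger4 and Adcy1, the strongest with both marks lay near Etnk1 (H3K27ac score 3100), Cst10 (2966), Arhgap10 (2877), 1700090G07Rik (2869), the Fc receptor gene Fcgr1 (2779), Zfr (2694), Snapc3 (2554) and Ighmbp2 (2365). The one near Fcgr1 was the only one of these 10 over a Kap1 KO H3K9me3 peak as well.

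Repeated sequence was uncommon at the middle of gained peaks. It was more frequent than at shared distal peaks, and its excess over WT only peaks depended on the number of copies required. The middle 300 bp were called multi-copy when at least 50% of their 24-mers occur 10 times or more in the mm9 genome. This held for 272 gained peaks, or 3.98% (3.53% to 4.47%), for 1.53% of shared, 2.47% of WT only and 2.28% of all distal Kap1 KO peaks. Gained exceeded shared peaks by 2.45 points (1.97 to 2.97) and WT only peaks by 1.51 points (0.919 to 2.10). Places 10 kb to the right of the gained peaks were multi-copy in 8.73%. Among gained peaks with WT H3K9me3 within 3 kb the share was 11.2%, with overlap 15.4%, and without WT H3K9me3 3.12%. With KAP1 within 3 kb it was 12.4%. When 100 copies were required instead of 10, 1.07% of gained, 0.498% of shared and 1.16% of WT only middles were multi-copy. Gained then exceeded shared peaks by 0.570 points (0.319 to 0.860), and differed from WT only peaks by -0.0964 points (-0.451 to 0.258). How reads that match several places were treated is not given in the sources used here.

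Gained peaks with shared sequence were found on many chromosomes. A peak was put in a group when its middle shared 50 or more 24-mers with that of any member. Members linked only through others need not share sequence with each other. In this way 203 gained peaks, or 2.97% (2.58% to 3.40%), fell into 53 groups. This was so of 1.56% of shared peaks (1.37% to 1.77%) and 2.04% of WT only peaks (1.72% to 2.40%). The largest group of each set held 37 gained, 21 shared and 79 WT only peaks. Of the 203 gained, 32.5% had WT H3K9me3 and 44.3% KAP1 within 3 kb. Of the 142 WT only peaks in groups these shares were 11.3% and 14.1%, and of the 241 shared peaks 8.30% and 22.4%. The groups were sought after the data had been examined, and members of a group are linked by shared sequence and are not independent.

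The largest gained group, of 37 peaks, spread over 15 chromosomes with scores from 51.1 to 2966, the highest near Cst10. 35 of the 37 lay over a KAP1 peak and 21 had WT H3K9me3 within 3 kb, 17 of them by overlap. The gained peak near Setdb1 of score 794 and that near Prl2c3 belong to it. A 24-mer was shared by the middles of 19 members, and 60 bases around it are printed for the 4 of these with the highest scores, with capitals where the 4 agree, which was at 57 of 60 positions. At the 24 positions of the 24-mer the agreement follows from the choice, here and in the sets below printed around a common 24-mer. The stretches are given in 1 orientation, with the strand of the genome they were read from.
Olfr871, chr9:20027881-20027940, - strand: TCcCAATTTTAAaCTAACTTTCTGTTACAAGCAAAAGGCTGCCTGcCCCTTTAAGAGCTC
Gm3944, chr12:18754462-18754521, + strand: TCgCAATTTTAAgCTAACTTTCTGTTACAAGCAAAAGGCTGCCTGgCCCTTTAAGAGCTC
Gm4983, chr12:18044005-18044064, + strand: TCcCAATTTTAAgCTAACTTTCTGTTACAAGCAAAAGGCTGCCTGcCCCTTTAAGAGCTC
Ripk2, chr4:16791137-16791196, - strand: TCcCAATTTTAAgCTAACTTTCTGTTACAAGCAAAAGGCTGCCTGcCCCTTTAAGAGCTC

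The next group held 19 gained peaks on 11 chromosomes, 16 of them over a KAP1 peak and 10 over WT H3K9me3, with scores from 62.2 to 1696. Another, with 11 members on 8 chromosomes, had low scores of 56.8 to 166, KAP1 near 10 and WT H3K9me3 near 7. In the group of 19, 11 middles held a common 24-mer. Of the 4 printed, capitals again mark agreement, at 46 of 60 positions.
Slc22a13, chr9:119113713-119113772, + strand: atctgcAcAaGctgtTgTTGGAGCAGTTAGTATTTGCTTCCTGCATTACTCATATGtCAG
5830418K08Rik, chr9:15175781-15175840, + strand: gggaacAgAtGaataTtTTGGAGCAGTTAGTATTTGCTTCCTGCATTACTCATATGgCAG
Cyp2c67, chr19:39721460-39721519, + strand: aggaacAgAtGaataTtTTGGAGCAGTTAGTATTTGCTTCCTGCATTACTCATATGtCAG
Cit, chr5:116238370-116238429, + strand: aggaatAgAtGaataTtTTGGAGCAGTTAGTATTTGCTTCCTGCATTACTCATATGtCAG

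Of the 7 groups of 5 or more gained peaks, 3 stayed on 1 chromosome each and lay within clusters of KZFPs and related units (KZFP/rGUs). The 11 gained peaks of 1 such group were spread over chr13:65604150-66854692, all inside a cluster, with scores from 86.2 to 431. None had KAP1 or WT H3K9me3 within 3 kb. 6 more lay at chr4:145263134-147014692, inside a cluster on chr4, with scores from 79.2 to 886, and 3 had WT H3K9me3 within 3 kb. A further 5, with scores from 66.0 to 793, were on chr12. On chr13, 10 of the 11 held a common 24-mer, and the 4 with the highest scores agree at 50 of 60 positions, in capitals.
Vmn2r-ps106, chr13:66799242-66799301, + strand: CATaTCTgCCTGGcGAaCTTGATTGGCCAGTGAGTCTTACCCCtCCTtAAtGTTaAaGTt
Gm6901, chr13:65804758-65804817, + strand: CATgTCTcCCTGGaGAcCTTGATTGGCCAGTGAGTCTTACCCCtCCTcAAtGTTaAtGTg
Vmn2r-ps105, chr13:66664748-66664807, - strand: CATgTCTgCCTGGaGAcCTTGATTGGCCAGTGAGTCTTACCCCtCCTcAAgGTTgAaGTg
Gm6901, chr13:65740619-65740678, - strand: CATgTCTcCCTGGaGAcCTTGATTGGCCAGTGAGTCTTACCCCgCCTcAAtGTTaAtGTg

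The 16 KZFP/rGUs clusters used here were rebuilt from 560 positions, fewer than the study's full set of elements, so clusters are missing or shortened and the counts are of these 16 alone. In them, 84 gained peaks stood beside 81 shared distal and 12 WT only peaks. These were 1.23% of gained (0.981% to 1.52%), 0.524% of shared, 0.172% of WT only and 0.740% of all distal Kap1 KO peaks. The gained peaks were concentrated in a few clusters, with 23 in the one on chr4 beside 6 shared and 0 WT only, 19 at chr13:65350952-67927187 beside 2 and 3, and 17 at chr12:17909615-21023139 beside 2 and 0. Of the 84, 14 had WT H3K9me3 and 12 KAP1 within 3 kb, and 21 had a multi-copy middle.

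AP-1 sites were more frequent in gained than in WT only peaks and slightly less frequent than in shared ones. AP-1, formed by proteins of the FOS and JUN families, binds the sequence TGAGTCA, which reads TGACTCA on the other strand, and is active at many enhancers of fibroblasts. A match was found in the middle 300 bp of 1591 gained peaks, or 23.3% (22.3% to 24.3%), of 26.0% of shared and 17.5% of WT only peaks, and of 25.2% of all distal Kap1 KO peaks. Places 10 kb to the right of the gained peaks had it in 5.68% (5.14% to 6.25%). Gained peaks differed by -2.72 points (-3.93 to -1.49) from shared ones, and were 5.81 points (4.47 to 7.15) over WT only ones and 17.6 points (16.5 to 18.7) over the places nearby. By quartile of score the gained and shared shares were 18.2% and 19.1% in the lowest quartile, 28.9% and 29.4% in the next, 27% and 31.6% in the third and 20.6% and 22.3% in the highest. A match is a sequence of letters and does not show binding.

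5 of the gained peaks tied at 3100 that hold an AP-1 match well inside the middle 300 bp are printed with the match in capitals. They were chosen after the data had been examined and are not typical of the strongest gained peaks. Of the 57 with a score of 3100 or more, 6 held a match, or 10.5%, against 23.3% of all gained peaks. The peaks near Prima1, Pcdh17, Rorb, Mapk10 and Mesp1 all had a score of 3100, and none had WT H3K9me3 or KAP1 within 3 kb.
Prima1, chr12:104519951-104520011, + strand: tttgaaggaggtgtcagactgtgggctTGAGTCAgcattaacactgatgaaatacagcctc
Pcdh17, chr14:84590928-84590988, + strand: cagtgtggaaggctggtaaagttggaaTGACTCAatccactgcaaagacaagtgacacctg
Rorb, chr19:19016202-19016262, + strand: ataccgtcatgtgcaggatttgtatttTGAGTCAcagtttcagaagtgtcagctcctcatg
Mapk10, chr5:103688709-103688769, + strand: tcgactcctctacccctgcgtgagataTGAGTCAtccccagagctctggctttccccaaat
Mesp1, chr7:86925937-86925997, + strand: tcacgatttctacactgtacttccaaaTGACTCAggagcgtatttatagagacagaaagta

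The matches were concentrated at the middle of the peaks. In bins of 100 bp, the share of gained peaks with a match rose to 8.92% at the middle and was between 1.42% and 2.09% at 1 to 2 kb away. It rose to 10.3% in shared peaks, from 1.66% to 2.24%, and to 6.31% in WT only peaks, from 1.45% to 2.06%. Gained peaks with WT H3K9me3 within 3 kb had a match in 19.0%, and those without in 23.8%.

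**Figure D4:**
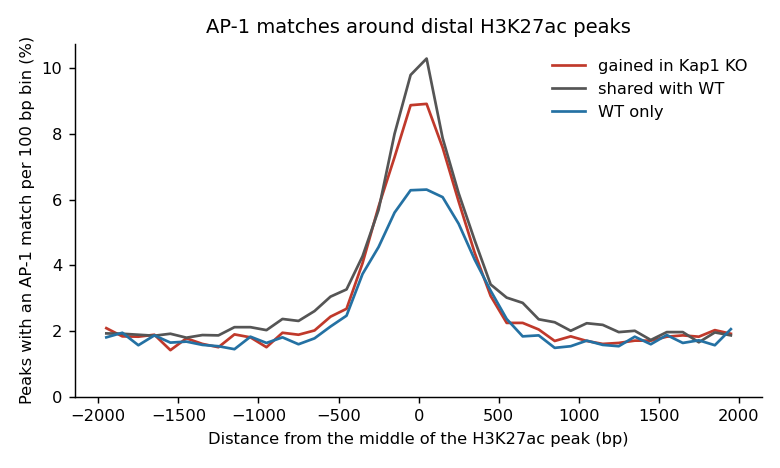
Percent of gained (red), shared (grey) and WT only (blue) distal peaks with an AP-1 match per bin of 100 bp, by distance in bp from the middle of the peak. Gained peaks reach 8.92%, shared 10.3% and WT only 6.31%, and all lie between 1.42% and 2.24% at 1 to 2 kb away.

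Repeated sequence and AP-1 met in 1 group of 7 gained peaks on 7 chromosomes, with scores from 50.6 to 665. All 7 middles held an AP-1 match, and all 7 held a common 24-mer. The 4 with the highest scores agree at 55 of 60 positions, in capitals, and the letters TGACTCA are among them. 2 of the 7 lay over WT H3K9me3.
Gm17332, chr11:31038206-31038265, - strand: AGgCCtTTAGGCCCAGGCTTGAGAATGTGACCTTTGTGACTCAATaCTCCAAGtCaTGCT
Pgcp, chr15:33003586-33003645, - strand: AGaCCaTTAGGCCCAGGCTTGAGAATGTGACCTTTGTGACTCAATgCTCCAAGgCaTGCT
Yes1, chr5:32887545-32887604, - strand: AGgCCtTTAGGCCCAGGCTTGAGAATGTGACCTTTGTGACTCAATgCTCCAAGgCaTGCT
Zfp958, chr8:4602034-4602093, + strand: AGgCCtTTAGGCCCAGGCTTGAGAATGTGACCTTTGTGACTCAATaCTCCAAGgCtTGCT

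For the other motifs, searched on both strands, the gained minus the WT only share lay between -2.19 points (GC box) and 0.604 points (RUNX). The RUNX sequence TGTGGTT was found in 9.13% of gained, 9.10% of shared and 8.52% of WT only peaks, and in 7.44% of the places nearby. The TEAD sequence CATTCCT was in 9.46%, 9.91%, 9.57% and 6.76%. The E-box CAGCTG was in 16.8%, 18.3%, 19.0% and 12.4%. The GATA sequence AGATAA was in 15.4%, 14.2% and 15%, under the 18% nearby. The GC box GGGCGG was in 3.88% of gained peaks, below the 7.82% of shared and the 6.06% of WT only peaks and close to the 3.79% nearby. The octamer ATGCAAAT, the CRE TGACGTCA and the ETS sequence CCGGAAGT were in 1.70%, 0.176% and 0.293% of gained peaks. The median GC content of the middle 300 bp was 45.7% in gained, 46.7% in shared and 46.3% in WT only peaks, and the mean number of CpGs was 2.77, 4.04 and 3.56.

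The balance of gained and lost peaks differed between chromosomes. Over the 18 chromosomes, 30.7% of distal Kap1 KO peaks were gained and 31.2% of distal WT peaks were WT only. On chr4 there were 229 gained and 525 WT only peaks, or 22.9% and 41.7% of the distal peaks of their list, and on chr10 there were 296 and 610, or 23.5% and 38.8%. Chr3 had 512 and 299, or 33.9% and 22.9%, and chr12 had 325 and 213, or 33.6% and 25.1%. Gained peaks outnumbered WT only peaks on 9 of 18 chromosomes. Without chromosomes 4 and 10, WT H3K9me3 lay within 3 kb of 10.2% of the gained peaks, 5.92 points over the shared ones.

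**Figure D5:**
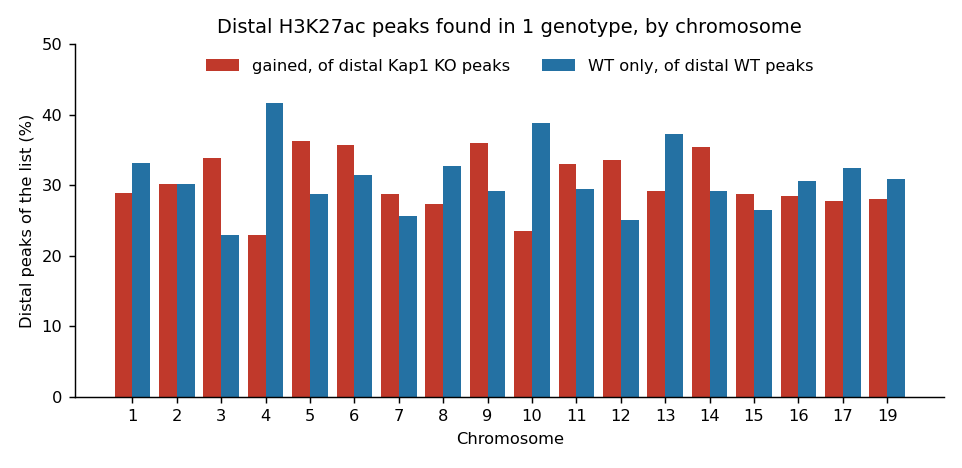
Gained peaks as percent of distal Kap1 KO peaks (red) and WT only peaks as percent of distal WT peaks (blue), for each of 18 chromosomes. Chr4 and chr10 have the fewest gained, at 22.9% and 23.5%, and the most WT only peaks, at 41.7% and 38.8%, and chr3 has 33.9% and 22.9%.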

How the data were processed

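The authors called ChIP-seq peaks with MACS against total input, after mapping reads with Bowtie 2 to mm9, and deposited the position and a score of each peak. The submitters' processing notes name CASAVA 1.82, Bowtie2 2.2.1, MACS 1.4, HISAT2 and bedtools, and the methods a cutoff score of 80, but MEF scores began at 50.0. Read counts were not used, so depth is unknown, and sites not listed can carry signal below the cutoff.

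Transcript starts came from GENCODE vM1 on NCBIM37 (mm9). Distances between peaks were taken edge to edge. The distance to the closest transcript start, used in the 1 kb rule, was taken from the edge of a peak. Distances to protein-coding starts were taken from the middle of a peak. Overlaps were identical to bedtools 2.31.1, and the steps were tested on simulated data. KZFP/rGUs were taken by position only, from a supplementary table that lists part of the study's set, and clusters were 8 or more elements less than 500 kb apart. Sequence matches used Python 3.11.15, numpy 2.4.6 and numba 0.67.0, intervals scipy 1.17.1, tables pandas 2.3.3 and plots matplotlib 3.10.9.

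The members, the gene lists and the rules were chosen with earlier results of these data known. Named were the 10 highest-scoring gained peaks (ties by chromosome and position), the 10 runs with most members, the 10 genes nearest to most members, the 5 with the highest WT H3K9me3 and the 5 with the highest KAP1 score nearby, the 10 highest with both, and 3 genes per list. The widest peaks, further genes with many gained peaks and the groups by sequence were added after their values were seen. Alternatives changed the score cutoff, distances, run gap, copies, chromosomes and middle. The genome file marks no repeats, so repeated sequence was measured by copies of 24-mers. Other libraries of the series were not analysed here.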

Additional observations from a re-analysis of the deposited data

How the results depend on the processing

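No paired analysis was possible because each MEF and Hepa 1.6 list is a single library. Of 54 alternatives over 9 values, 30 stayed within the 95% interval of the value reported and 24 did not.

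With a score of at least 80 in both lists, 29.5% of distal Kap1 KO peaks were gained, with a median score of 179 and width of 1437 bp, 22.2% were in runs and 25.9% had AP-1. With scores of at least the median of the own list, 641 peaks (8.72%) were gained. Their medians were 1011 for score, 2536 bp for width and 40938 bp for distance to a protein-coding start. Of them, 13.1% were in runs, 20.1% had WT H3K9me3 and 20.7% KAP1 within 3 kb. At least 1 kb from WT peaks, the gained share was 28.6%, and without chromosomes 4 and 10 it was 31.5%. Over 2.5 kb from transcript starts, the median distance to a protein-coding start was 39100 bp. Runs with gaps of at most 5 and 20 kb held 18.1% and 36.0%. WT H3K9me3 overlapped 5.41% of gained peaks, lay within 10 kb of 19.5%, and with a score of at least 80 within 3 kb of 6.92%. For KAP1, overlap and 10 kb gave 6.45% and 20.8%. With 100 copies, 1.07% were multi-copy, and in the middle 200 bp 16.7% had AP-1.

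Alternatives for the differences in WT H3K9me3 and KAP1, added after seeing the data, kept their sign. For multi-copy middles at 100 copies, gained minus shared was 0.570 points (0.319 to 0.860). Gained minus WT only changed sign there, to -0.0964 points (-0.451 to 0.258). Alternatives for the remaining differences were not run. For WT H3K9me3, gained exceeded shared peaks by 4.32 to 15 points over 8 alternatives. For KAP1 this was 0.0190 to 7.11 points over 7, and the interval excluded 0 in 4 of them.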
